A study of Mus musculus with 2 samples.

Results

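The genes described here encode the glutathione transferases, the peroxiredoxins and the antioxidant enzymes that the transcription factor NRF2 is known to control. Members were taken by gene symbol: every listed symbol of the transferase classes alpha, kappa, mu, omega, pi, theta and zeta, of the microsomal transferases and of the peroxiredoxins, plus 17 named genes. Of the 13326 gene symbols in the liver data, 42 were members. Of the 17 named genes, Abcc4 and Ggt1 were not analysed here.

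The study profiled liver messenger RNA in male mice on the C57BL/6J background that were killed at 12 weeks of age after a night without food. One group was Adipoq-/-, which lacks the gene for adiponectin, a hormone secreted by fat cells, and the other was wild type (WT). Each group was 1 sequencing library, made from RNA that had been pooled from 9 to 10 mice, so animals within a genotype cannot be separated. No spread between samples can be computed, no difference below has a replicate check and no p-value is given. Because Adipoq was not analysed here, its level could not be used to check which library lacks it.

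Glutathione is a small thiol made in most cells and is most abundant in liver. Glutathione transferases join it to drugs, toxins and lipid breakdown products, and peroxiredoxins, catalase and superoxide dismutases remove reactive oxygen species. NRF2, encoded by Nfe2l2, is normally held for degradation by KEAP1. When it is released it binds antioxidant response elements near genes of glutathione synthesis, conjugation and NADPH supply.

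Levels are in FPKM, a count of fragments per length of transcript and per number of mapped fragments, so they may be compared between genes. The number of fragments behind each value is unknown. Ratios are log2((Adipoq-/- FPKM + 1) / (WT FPKM + 1)), which understates differences of low genes. Its median was -0.15 over 11985 genes that reached 1 FPKM in either library. Relative log2 ratios, given from here on, have that median subtracted. A gene is counted as lower or higher when it was at least 1.5-fold from the all-gene median, which is 0.58 on the log2 scale. Both libraries carried liver markers: all 10 hepatocyte markers had values between 71.9 and 17522 FPKM. In bulk liver, fewer cells of a type and less RNA per cell cannot be told apart.

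Some members are near copies of each other, and this bears on how their values can be read. For each member the protein-coding transcript with the longest open reading frame, or for Prdx2-rs3 its only kind of transcript, was cut into all words of 31 bases, and each word was looked for in the transcripts of every other annotated gene. Gsta1 shared 92.2% of its words with other genes, Gstp2 78.1% and Gsta2 75.6%. The reading frames of Gsta1 and Gsta2, neighbours on chromosome 9, were identical at 97.9% of aligned bases. They differed by 14 substitutions and held an identical run of 196 bases. The 120-base stretch with most differences between them is printed here, from base 548 to base 667 of each reading frame, to show how little separates them (GENCODE M21 transcripts, GRCm38). Capitals mark the 6 bases that differ.
Gsta1: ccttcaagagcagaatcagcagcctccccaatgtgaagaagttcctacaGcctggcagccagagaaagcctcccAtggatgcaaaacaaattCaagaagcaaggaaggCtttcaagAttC
Gsta2: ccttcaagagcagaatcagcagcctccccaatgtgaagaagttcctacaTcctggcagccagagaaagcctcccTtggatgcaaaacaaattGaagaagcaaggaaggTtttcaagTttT
The mu class, also clustered, on chromosome 3, is less alike. Its 21 pairs of reading frames were identical at 70.4% to 89.5% of aligned bases. Gstm1 and Gstm2 are printed over the 120 bases where they differ most, base 610 to 729 in Gstm1 and base 532 to 651 in Gstm2, with the 26 differing bases in capitals, as a contrast to the alpha pair.
Gstm1: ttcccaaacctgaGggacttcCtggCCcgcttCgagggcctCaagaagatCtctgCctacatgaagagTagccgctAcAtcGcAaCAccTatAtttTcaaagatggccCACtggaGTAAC
Gstm2: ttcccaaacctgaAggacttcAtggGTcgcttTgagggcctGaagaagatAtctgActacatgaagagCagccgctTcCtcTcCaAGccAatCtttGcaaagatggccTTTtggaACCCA
A read from the alpha pair would often match both genes, whereas most stretches of the mu pair can be told apart. Within the mu class, the share of words found in other genes ran between 2.15% for Gstm7 and 46.6% for Gstm1. The Gstm1 transcript used had 828 bases, whereas its longest had 1289 bases, so its share may depend on the transcript chosen.

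**Figure D1:**
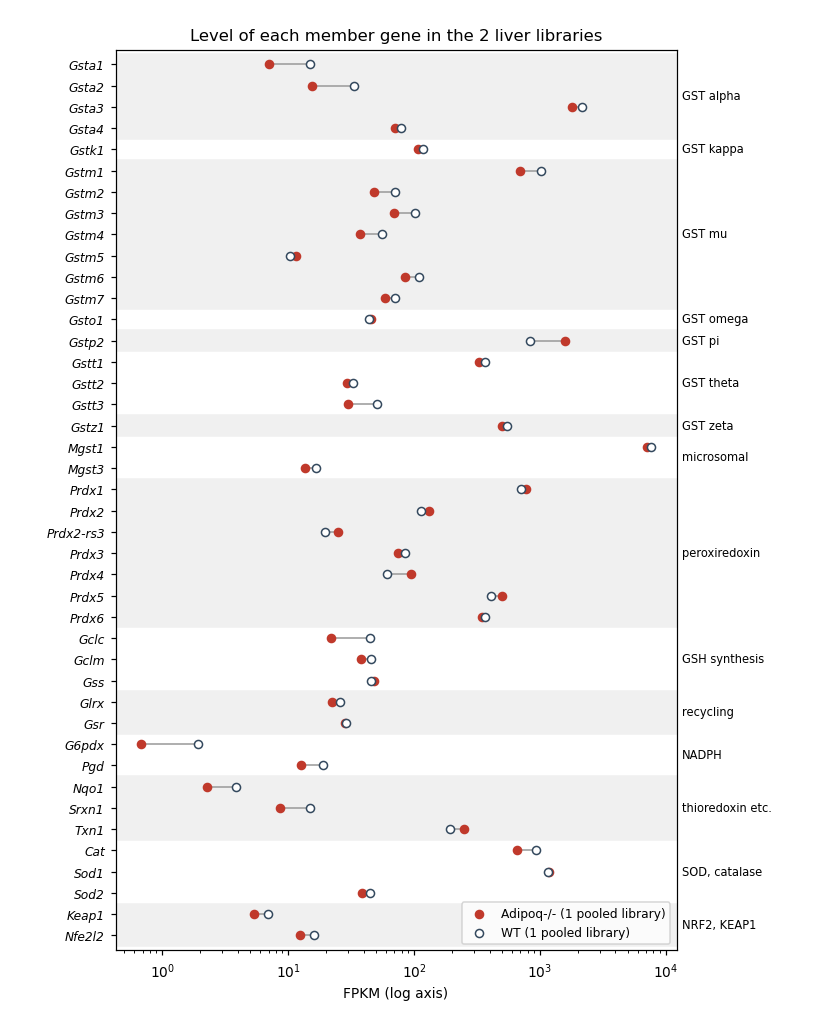
FPKM of each of the 42 members (log axis) in the Adipoq-/- library (filled points) and the WT library (open points), grouped by role, with 1 point per pooled library. Mgst1 is the most abundant member at 7164 and 7665 FPKM, and G6pdx the least at 0.679 and 1.92 FPKM, Adipoq-/- before WT.

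The alpha class transferases were below the all-gene median in all 4 cases, except that Gsta4 was at 0.0091 with a pseudocount of 0.1 FPKM, and the minor forms were lowest. Gsta2 stood at 15.4 FPKM in the Adipoq-/- library and 33.4 FPKM in the WT library, and Gsta1 at 7.04 and 15.0 FPKM in the same order. Their relative log2 ratios, -0.92 and -0.84, were among the 3 lowest of the 42 members, with that of Gclc, although G6pdx was the lowest with a pseudocount of 0.1 FPKM. Because of their shared sequence these cannot be taken as separate measurements. The near copies Gm3776 (6.19 FPKM in Adipoq-/-, 12.9 FPKM in WT) and Gm10639 (4.91 and 9.53 FPKM), gene models that share 87.8% of the words of Gsta1 and 56.4% of those of Gsta2, had relative log2 ratios of -0.80 and -0.68. Gsta3, which in mouse conjugates the activated form of aflatoxin, was the main alpha transferase at 1813 FPKM in the Adipoq-/- library and 2181 FPKM in the WT library. Its relative log2 ratio was -0.11. Gsta4, which conjugates the lipid peroxidation product hydroxynonenal, was at 70.5 and 79.4 FPKM (-0.02). Only 1.05% of the words of Gsta3 and none of those of Gsta4 occurred in other genes.

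Of the 7 mu class genes, 4 had nearly the same ratio. Gstm1, its most abundant member in liver, was at 702 FPKM in the Adipoq-/- library and 1033 FPKM in the WT library. Gstm3 was at 69.9 FPKM in Adipoq-/- and 102 FPKM in WT, Gstm2 at 47.9 and 71.0 FPKM, and Gstm4 at 37.0 and 55.4 FPKM. The relative log2 ratios of these 4 genes lay between -0.42 and -0.39, although their levels in WT lay between 55.4 and 1033 FPKM. Gstm4 had the lowest of them and shared 3.40% of its words with other genes. Gstm2 shared 19.5%, Gstm3 37.7% and Gstm1 46.6%, so these 3 values may hold fragments of other genes. Gstm6 (84.4 FPKM in Adipoq-/-, 109 FPKM in WT) and Gstm7 (58.5 and 70.3 FPKM) were nearer to the all-gene median at -0.21 and -0.11. Gstm5 was above it at 0.31, with 11.6 FPKM in Adipoq-/- and 10.3 FPKM in WT, but at -0.0064 against genes of like length. As reported here, no mu gene was 1.5-fold from the all-gene median. The 7 genes together summed to 1011 FPKM in the Adipoq-/- library and 1451 FPKM in the WT library.

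Gstp2, of the pi class, went the other way. It was at 1577 FPKM in the Adipoq-/- library and 841 FPKM in the WT library, 1.88 times the WT level, and its relative log2 ratio of 1.06 was the highest of the 42 members. In mice, pi class transferases are known to be more abundant in male than in female liver. Gstp2 shared 69.6% of its words with its paralog Gstp1, which was not analysed here, so its value may hold fragments of both genes. Among the 18 alpha to zeta transferases it was the only one at least 1.5-fold higher. With Gstp2 the 18 genes summed to 5531 FPKM in Adipoq-/- and 5765 FPKM in WT. Without it the other 17 summed to 3954 FPKM in Adipoq-/- and 4924 FPKM in WT.

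The remaining transferase classes held near the all-gene median with 1 exception. Gstt3, of the theta class, was at 29.8 FPKM in the Adipoq-/- library and 50.6 FPKM in the WT library (-0.59), and 27.0% of its words occurred in other genes. Gstt1 was at 327 FPKM in Adipoq-/- and 367 FPKM in WT, and Gstt2 at 29.6 and 32.7 FPKM. Gstz1, which isomerises maleylacetoacetate in tyrosine breakdown, was at 498 and 552 FPKM. Gstk1, found in mitochondria and peroxisomes, was at 108 and 118 FPKM. The relative log2 ratios of these 4 genes lay between -0.01 and 0.01. Against genes of like mean FPKM, Gstt1 was lower at -0.26, Gstz1 at -0.25 and Gstk1 at -0.24, and Gstt2 was at -0.05. Gsto1, which can reduce dehydroascorbate, was at 45.3 FPKM in Adipoq-/- and 44.1 FPKM in WT (0.19). The membrane-bound Mgst1, the most abundant member, was at 7164 FPKM in Adipoq-/- and 7665 FPKM in WT (0.05), and Mgst3 at 13.7 and 16.7 FPKM (-0.12). Against genes of like mean FPKM, Mgst1 was at -0.19 and Mgst3 at -0.12.

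**Figure D2:**
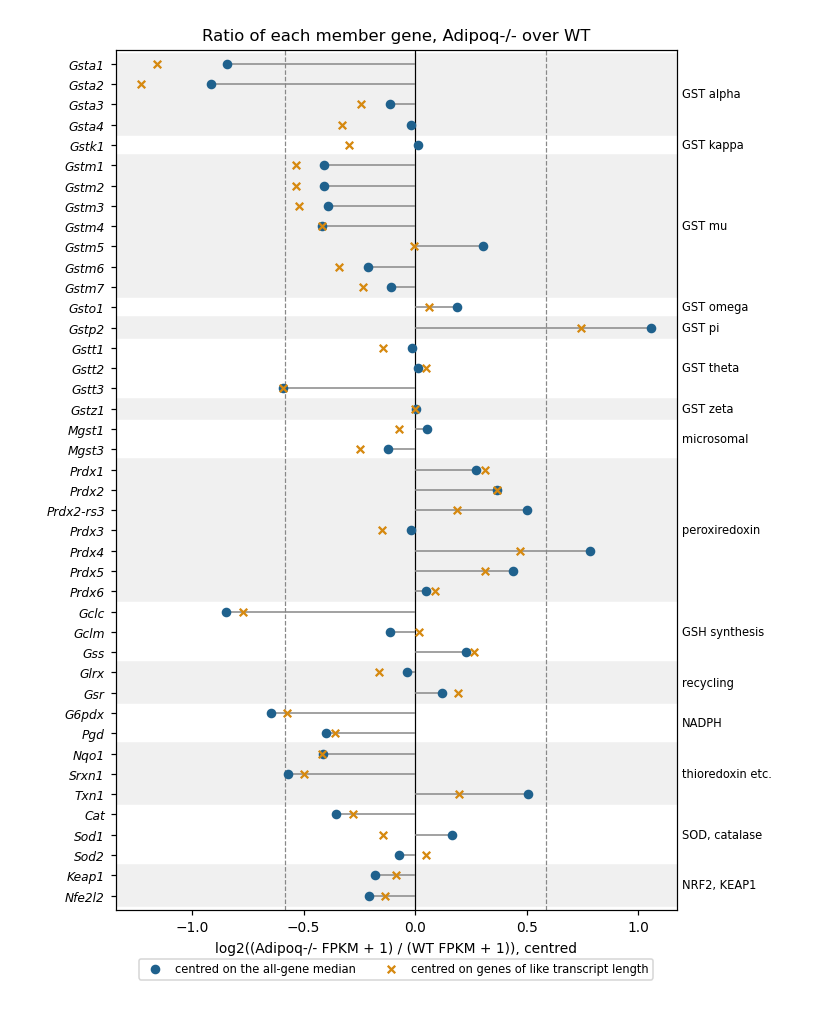
Log2 ratio of each of the 42 members, Adipoq-/- over WT, centred on the all-gene median (points) or on the median of genes of like transcript length (crosses), with dashed lines at 1.5-fold. Gsta1, Gsta2, Gclc, G6pdx and Gstt3 lie beyond the lower line and Gstp2 and Prdx4 beyond the upper line by their points; by their crosses G6pdx and Prdx4 lie inside.

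Genes that make glutathione and the NADPH that keeps it reduced differed from gene to gene, also within 1 step. Gclc, the catalytic subunit of glutamate-cysteine ligase and the rate-limiting enzyme of glutathione synthesis, was at 22.1 FPKM in the Adipoq-/- library and 45.2 FPKM in the WT library. That is 0.489 times the WT level, with a relative log2 ratio of -0.85, and none of its words occurred in other genes. Gclm, the modifier subunit of the same enzyme, was at 38.0 FPKM in Adipoq-/- and 45.8 FPKM in WT (-0.11). Gss, the synthetase of the next step, was at 48.5 FPKM in Adipoq-/- and 46.0 FPKM in WT (0.23). In WT the 3 transcripts had nearly equal levels, and in Adipoq-/- Gclc was the lowest of them. Gsr, which reduces oxidised glutathione, was at 28.3 FPKM in Adipoq-/- and 28.9 FPKM in WT (0.12). The glutaredoxin gene Glrx was at 22.5 FPKM in Adipoq-/- and 25.7 FPKM in WT (-0.04). The 2 dehydrogenases of the pentose phosphate pathway were both below the all-gene median. G6pdx was at 0.679 FPKM in Adipoq-/- and 1.92 FPKM in WT (-0.65), and Pgd at 12.7 and 19.0 FPKM (-0.40). The ratio of G6pdx depended on the pseudocount and was -0.87 with 0.5 FPKM and -1.19 with 0.1 FPKM. G6pdx was the only member under 1 FPKM in either library and entered the comparison through its WT value alone.

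The peroxiredoxins, which use thiols to remove peroxides, lay on the other side. Of 7 members, 6 were above the all-gene median (list median 0.37), and 4 of these, Prdx2, Prdx2-rs3, Prdx4 and Prdx5, stayed above 0 under every scaling tried; Prdx1 was at -0.036 and Prdx6 at -0.26 after scaling to equal sums. Most are abundant, and the 1018 genes with a mean of 100 FPKM or more had a median of 0.26; against genes of like level the median of the peroxiredoxins was 0.12. Prdx4, the form of the endoplasmic reticulum, was at 95.6 FPKM in the Adipoq-/- library and 61.4 FPKM in the WT library (0.78), and was the other member at least 1.5-fold higher. Prdx5 was at 503 FPKM in Adipoq-/- and 411 FPKM in WT (0.44), Prdx2 at 133 and 114 FPKM (0.37), and Prdx1 at 776 and 712 FPKM (0.28). Prdx6 (346 FPKM in Adipoq-/-, 371 FPKM in WT) and the mitochondrial Prdx3 (74.8 and 84.4 FPKM) were near the median at 0.05 and -0.02. Prdx2-rs3, annotated as a processed pseudogene, was at 25.2 and 19.5 FPKM (0.50, and 0.19 against genes of like length). Prdx2 is abundant in red cells. The 8 erythroid markers with a row summed to 13511 FPKM in Adipoq-/- and 11838 FPKM in WT, with none listed at 0. These sums were 1.51% of all summed FPKM in Adipoq-/- and 1.48% in WT. All 7 markers that passed the minimum were above the all-gene median (list median 0.35). The erythroid list median was 0.13 against genes of like length and 0.12 against genes of like level. The part of red cells in the Prdx2 value was not tested. Txn1, the thioredoxin that recharges most peroxiredoxins, was at 250.3 FPKM in Adipoq-/- and 195 FPKM in WT (0.51). Against genes of like length Txn1 was at 0.20.

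Srxn1, Nqo1 and Cat were below the all-gene median while the superoxide dismutases were near it. Srxn1, the sulfiredoxin that rescues overoxidised peroxiredoxins, was at 8.67 FPKM in the Adipoq-/- library and 14.9 FPKM in the WT library. Its relative log2 ratio of -0.57 was the nearest to the 1.5-fold line among members that did not reach it. That of Gstt3 (-0.59) was the nearest among members past it. Nqo1, a quinone reductase often used as a readout of NRF2, was low in both libraries, at 2.26 FPKM in Adipoq-/- and 3.83 FPKM in WT (-0.41). Cat, the peroxisomal catalase, was at 658 FPKM in Adipoq-/- and 934 FPKM in WT (-0.35). Sod1, the cytosolic superoxide dismutase, was at 1183 FPKM in Adipoq-/- and 1171 FPKM in WT (0.17, and -0.15 against genes of like length), and shared 35.4% of its words with other genes, so its level is uncertain. The mitochondrial Sod2 was at 38.5 FPKM in Adipoq-/- and 45.1 FPKM in WT (-0.07). The transcripts of the regulators were both slightly below the median. Nfe2l2 was at 12.4 FPKM in Adipoq-/- and 16.1 FPKM in WT (-0.21), and Keap1 at 5.34 and 6.98 FPKM (-0.18). These are transcript levels, and the activity of NRF2, which is set mostly by protein stability, was not measured.

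Over all 42 members the median relative log2 ratio was -0.05, against 0.00 for all genes by construction. Of the members, 5 (11.9%) were at least 1.5-fold lower in Adipoq-/-, where 2.61% of the 11985 genes were. These were Gsta2, Gclc, Gsta1, G6pdx and Gstt3. Gsta1 and Gsta2 cannot be taken as separate measurements. G6pdx reached the minimum in the WT library alone, as did 660 of the 11985 genes. Both limits also hold for the 2-fold counts below. At least 1.5-fold higher were 2 members (4.76%), Gstp2 and Prdx4, where 6.73% of all genes were. Below the all-gene median lay 25 members (59.5%), where 50% of all genes lay by construction. On FPKM as deposited, 31 members were lower by any amount, where 66.9% of all genes were. At least 2-fold lower on deposited FPKM, with no pseudocount, were 4 members, G6pdx, Gsta2, Gsta1 and Gclc, where 2.89% of all genes were, and 0 members were at least 2-fold higher, where 1.29% were. With the pseudocount of 1 FPKM and no centring, 2 members, Gsta2 and Gclc, were at least 2-fold lower, where 0.759% of all genes were, and 0 at least 2-fold higher, where 0.459% were. Of summed FPKM, the members took 1.91% in the Adipoq-/- library and 2.23% in the WT library, or 1.10% and 1.27% without Mgst1. Most members are abundant. Among the 4991 genes whose mean was 10 FPKM or more, 1.92% were at least 1.5-fold lower and 9.60% higher, and of the 39 members in that class 4 were lower and 2 higher.

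The ratio moved with transcript length across all genes, and the members have short transcripts. Their median length was 1417 bases, against 2449 bases for the 11571 genes with a length. With the genes divided into 10 equal groups by length, the median relative log2 ratio was 0.31 in group 2 and -0.12 in group 10, which holds the longest, and 10 members fell in group 2 and 13 in group 3. Set against genes of like length, the median of the members was -0.15, with 4 members at least 1.5-fold lower and 1 higher, where 2.77% and 2.93% of all genes were. Gsta1 (-1.16), Gsta2 (-1.23), Gclc (-0.77) and Gstt3 (-0.59) remained past the line, and Gstp2 was at 0.75. Across the 42 members, which share these 2 libraries, length and ratio had a Spearman rho of -0.32 and, with length on a log2 scale, a Pearson r of -0.30.

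**Figure D3:**
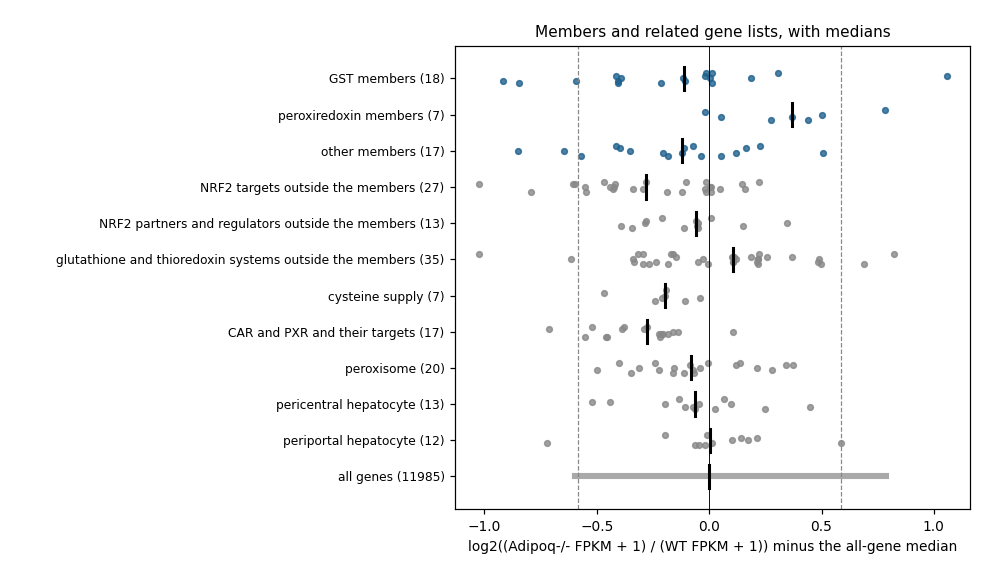
Relative log2 ratio of each measured gene (points) and list median (black bars) for the members and for related gene lists, with the number of genes in parentheses; the grey bar in the bottom row spans the central 95% of all genes and dashed lines mark 1.5-fold. Peroxiredoxins have a median of 0.37, and NRF2 targets outside the members one of -0.28.

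Genes of the same pathways that are not members were described from lists of genes chosen by known role, with earlier results of these data known. Of 27 measured NRF2 targets outside the members, 20 were below the all-gene median, 4 (14.8%) were at least 1.5-fold lower and 0 at least 1.5-fold higher (list median -0.28). Over all genes these shares were 2.61% and 6.73%, which also stand as background for the lists that follow. The lowest were Me1, malic enzyme, another source of NADPH (33.1 FPKM in Adipoq-/-, 76.1 FPKM in WT), the nucleotidase Entpd5 (38.7 and 75.4 FPKM) and the exporter Abcc3 (34.2 and 58.5 FPKM). Me1 is also a lipogenic gene. The partners and regulators of NRF2 had a median of -0.06, with none of 13 past 1.5-fold. Farthest from 0 among them were Nfe2 (0.771 FPKM in Adipoq-/-, 1.58 FPKM in WT), the ubiquitin ligase subunit Rbx1 (41.0 and 35.7 FPKM) and the NRF2 relative Nfe2l1 (22.0 and 31.4 FPKM). The remaining glutathione and thioredoxin genes had a median of 0.11 over 35 genes, with 2 lower (5.71%) and 2 higher (5.71%) by 1.5-fold. Of these 4, Gpx8 reached the minimum of 1 FPKM in the Adipoq-/- library alone and 1 of the lower genes, Chac1, in the WT library alone (0.450 FPKM in Adipoq-/-, 1.46 FPKM in WT); Chac1 was named after its values were seen. Here Gpx1, the main hepatic glutathione peroxidase, stood out by level at 3385 FPKM in Adipoq-/- and 2334 FPKM in WT (0.69). Gpx8 was at 1.31 FPKM in Adipoq-/- and 0.451 FPKM in WT, and Me1, also held by this list, was the gene farthest from 0. Against genes of like level the median of this list was -0.09. Against genes of like length Gpx1 was at 0.56 and Gpx8 at 0.51, both inside 1.5-fold. Of the 1018 genes with a mean of 100 FPKM or more, as Gpx1 has, 18.4% were at least 1.5-fold higher.

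Genes that supply cysteine or use it up were below the all-gene median in all 7 measured cases, and none by 1.5-fold. Their list median was -0.19, and -0.12 against genes of like length. Csad, which diverts cysteine to taurine, was at 82.9 FPKM in Adipoq-/- and 128 FPKM in WT, Mat1a at 396 and 520 FPKM, and Cbs, which begins transsulfuration, at 187 and 241 FPKM. The nuclear receptors CAR and PXR, which also induce transferases, and their targets were below the all-gene median in 16 of 17 cases (list median -0.27), of which 1 (5.88%), Cyp2b10, was past 1.5-fold and reached the minimum in the WT library alone. Cyp2b10 was at 0.693 FPKM in Adipoq-/- and 2.08 FPKM in WT, Nr1i3, the gene for CAR, at 26.1 and 43.2 FPKM, and Aldh1a1 at 350.4 and 559 FPKM. Peroxisomal genes, which share the organelle of catalase, had a median of -0.08 over 20 genes, none past 1.5-fold. Pex11a (53.8 FPKM in Adipoq-/-, 85.2 FPKM in WT) and the transporter Abcd3 (191 and 281 FPKM) were lowest, and Pex6 was highest (16.1 and 13.6 FPKM). In mouse liver several transferases are stronger around the central vein. The 13 measured pericentral genes had a median of -0.06, none past 1.5-fold, and the 12 periportal genes one of 0.00, with 1 lower (8.33%) and 1 higher (8.33%). Pericentral Aldh1a1 (-0.52), Lect2 (0.45) and Oat (-0.44) and periportal Agxt2l1 (-0.72), Pck1 (0.59) and Hsd17b13 (0.21) were farthest from 0.

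Antioxidant response elements were looked for as the letters TGACNNNGC on both strands of RefSeq promoter windows (GRCm38.p6), which run between 250 bases before and 50 bases after a gene's start. A match is a description of letters and no evidence of binding. These letters can overlap the AP-1 motif TGACTCA. Elements outside these windows were not looked for, so genes without a match may hold one elsewhere. Windows were found for 36 of the 42 members, but not for Gclc, Gsr, Gsta4, Gstt2, Prdx2-rs3 and Prdx6. Of the 36, 11 (30.6%) held a match in at least 1 window. Of the 7109 genes with at least 1 FPKM and a window, 17.5% did, as did 12.4% of all 32851 windows. The median GC content was 57.0% in the windows of the members and 60.3% in those of the 7109 genes. The 11 members with a match had a median relative log2 ratio of -0.11, and the 25 without one -0.07. Over the 7109 genes the medians were -0.04 with a match and -0.04 without. The matches of the 3 members with the lowest and the 2 with the highest ratios among the 11 are printed with 10 bases on either side, in the direction of the gene, to show that the same letters occur on both sides of the all-gene median. Capitals mark the match, which reads on the opposite strand in G6pdx, Srxn1 and Prdx1.
G6pdx, chrX:74428919-74428947, minus strand: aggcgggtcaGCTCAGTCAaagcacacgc
Srxn1, chr2:152105542-152105570, plus strand: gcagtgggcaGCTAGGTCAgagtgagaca
Pgd, chr4:149166061-149166089, minus strand: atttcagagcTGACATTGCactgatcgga
Gstm5, chr3:107895802-107895830, plus strand: caccgcccacTGACCACGCggagggcggg
Prdx1, chr4:116685456-116685484, plus strand: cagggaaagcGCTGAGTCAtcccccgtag
The match began 57 bases before the start in G6pdx, 133 before it in Prdx1 and 42 before it in Gstm5. In Srxn1 it began at base 29 and in Pgd, whose second annotated start was used, at base 4 after the start. These 2 matches thus lie after the annotated start, not upstream of it. The window of the first annotated start of Pgd held no match. The match of Prdx1, read on its own strand as TGACTCAGC, also holds the AP-1 letters. These 5 genes had relative log2 ratios of -0.65, -0.57, -0.40, 0.31 and 0.28 in the order printed. Gclm, Gsta3, Gstm7, Mgst1, Nfe2l2 and Sod1 also held a match.

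**Figure D4:**
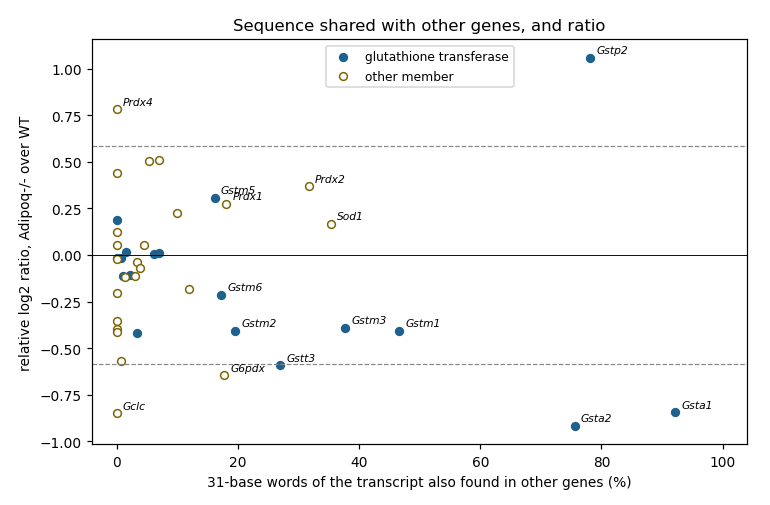
Relative log2 ratio of each member (Adipoq-/- over WT) against the percentage of its 31-base words found in transcripts of other genes, for transferases (filled) and other members (open), with dashed lines at 1.5-fold. Gsta1, Gsta2 and Gstp2, at 75.6% to 92.2%, lie past 1.5-fold, as do Gclc and Prdx4 at 0%.

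Of the 7 members past 1.5-fold, Gsta1, Gsta2 and Gstp2 were those of the 42 that shared over 50% of their words with other genes, G6pdx shared 17.7% and Gstt3 27.0%, and Gclc and Prdx4 shared none. Without Gsta1, Gsta2 and Gstp2, 3 of the other 39 members were at least 1.5-fold lower and 1 higher, where 2.61% and 6.73% of all genes were. Of the markers for other liver cells, Kupffer cell genes summed to 317 FPKM in Adipoq-/- and 267 FPKM in WT (12 with a row), endothelial genes to 88.7 and 84.5 FPKM (10), stellate cell genes to 81.7 and 80.2 FPKM (9) and cholangiocyte genes to 27.5 and 20.5 FPKM (4). Lymphocyte genes summed to 5.89 FPKM in Adipoq-/- and 5.59 FPKM in WT (4) and neutrophil genes to 27.2 and 27.3 FPKM (4). No marker with a row was listed at 0 in either library. The part of these other liver cells in the values of the members was not tested.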

How the data were processed

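Values are the FPKM deposited by the authors, 1 table per library, with 13352 rows in the same order and 13326 gene symbols. The programs TopHat and Cuffdiff and the builds mm9 and NCBIM37 are named per the submitters' processing notes. Their versions, and the annotation and row filters, were not given in the sources used here. No replicate exists and depth is unknown, so no test and no interval was possible. The members and gene lists were chosen with earlier results of these data known. None of the members was in 2 rows. Of the other symbols, 26 had 2 rows, and the row of larger average was used.

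Ratios used a pseudocount of 1 FPKM and a minimum of 1 FPKM in at least 1 library, and were centred on the all-gene median. Python 3.11.15, pandas 2.3.3 and numpy 2.4.6 were used, and the calculation was tested on simulated data. Transcript lengths and sequences came from GENCODE M21 and promoter windows from RefSeq, both on GRCm38, which is not the build of the FPKM tables. They were matched by symbol. Reading frames were aligned globally with Biopython 1.88. The planned comparison of proteins was replaced by that of reading frames. Every member may be named. Of each other pathway list, the 3 genes farthest from 0 are named. The closing section gives 10 other settings and 2 added after the data were seen, as was the 2-fold count without a pseudocount.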

Additional observations from a re-analysis of the deposited data

How the results depend on the processing

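The median relative log2 ratio of the members, -0.05 as reported, was -0.032 and -0.042 with pseudocounts of 0.1 and 0.5 FPKM, -0.060 with no minimum and -0.066 with a minimum of 5 FPKM. It was -0.21 on FPKM as deposited with no centring, -0.36 after scaling to equal sums, -0.13 after scaling to equal upper quartiles, -0.15 within 10 groups of genes by transcript length and -0.21 within 10 groups by mean FPKM. It was -0.036 without Gsta1, Gsta2 and Gstp2, and -0.071 without the pseudogene Prdx2-rs3, both chosen after the data were seen. The count at least 1.5-fold lower was 5 as reported, 13 after scaling to equal sums (12.5% of all genes), 8 within groups by mean FPKM (2.85%) and 3 without the near copies. The count at least 1.5-fold higher was 2 as reported and 1 after scaling to equal sums (1.52%), within groups by length (2.93%) and without the near copies. The other counts were within 1.5 times those reported. Under every setting run that held them, Gclc, Gsta1 and Gsta2 were at least 1.5-fold lower and Gstp2 at least 1.5-fold higher, and no member counted as lower or higher changed sign. Gstt3 was at -0.58 with a pseudocount of 0.1 FPKM and G6pdx at -0.57 within groups by length. Prdx4 was at 0.47 after scaling to equal sums and within groups by length. Srxn1 was at least 1.5-fold lower in 5 of 13 settings, between -0.86 and -0.60, and Cat, Gstm1 and Gstm3 in 2, after scaling to equal sums and within groups by mean FPKM. In each of the 12 or 13 settings that held them, 20 members were below 0 and 6 above 0. The cause of these shifts was not tested. No paired analysis was possible because each genotype is 1 library, and leaving out a library was not possible for the same reason.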

Other observations

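Rows of sequence copies stood beside several members. Gm8566, a gene model that holds 34.9% of the 31-base words of Sod1, was at 1193 FPKM in Adipoq-/- and 1126 FPKM in WT, close to Sod1 itself at 1183 and 1171 FPKM. The pseudogenes Prdx6-ps1 (45.5 FPKM in Adipoq-/-, 48.5 FPKM in WT, relative log2 ratio 0.06) and Prdx6-ps2 (7.58 and 5.97 FPKM, 0.45) were left out by the rule on symbols, and Prdx6 had 0.05. These genes were chosen after their values were seen. How fragments were divided among such copies is not given in the sources used here, so the level of Sod1 is uncertain.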
